A study of Mus musculus with 2 samples.

Results

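Distal open regions of mouse megakaryocytes that the peak lists rank lowest by fold enrichment numbered 683, of 47730 distal regions and 67991 regions of any kind that the 2 replicates shared on chromosomes 1 to 19. They were chosen by their listed values. Overlapping peaks of each replicate's list were merged with the highest fold kept, regions that overlapped between the replicates were joined, and a region was kept where it lay more than 1 kb from every annotated transcript start and had a fold under 3.5 in both replicates. They are called weak regions here, and the 47047 other shared distal regions are those they are set against. The data are ATAC-seq, in which a transposase cuts accessible DNA, of megakaryocytes, large marrow cells from which platelets are shed. There was 1 group of 2 biological replicates, both of primary cells from adult male C57BL/6J mice aged 5 to 6 weeks and both of 50000 cells, and both carry the same donor record. No treatment, mutant allele or other cell type was among the samples, so no test between groups was possible, and regions of a library are not replicates. All comparisons below are descriptions, with a value for each replicate.

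Distal open regions include enhancers, which bind transcription factors and act on promoters over a distance, and insulator sites bound by CTCF. Fold enrichment divides the tags piled up at the summit of a peak by the tags around it. A low fold can therefore go with few tags at the summit or with many tags around it. In the megakaryocyte lineage, GATA, ETS and RUNX factors and NF-E2 occupy many enhancers, while PU.1 and C/EBP factors do so in myeloid cells.

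Sequences of weak regions that hold the motifs of these factors are printed in GRCm38 (mm10) on the plus strand, 5′ to 3′ and centred between the summits of the 2 replicates, with the motif in capitals. For each motif printed, the weak region shown is the one with the highest −log10 p among those with a match close to both summits. Weak regions with a match within 50 bp of both summits numbered 25 for GATA, 64 for the ETS form, 42 for RUNX, 76 for PU.1, 33 for AP-1, 34 for C/EBP, 6 for CTCF and 152 for the E-box. No such count is given for the other distal regions, so these numbers only say how many regions each example was taken from.
GATA, chr7:28383082-28383202, 2.90 kb upstream of Zfp36: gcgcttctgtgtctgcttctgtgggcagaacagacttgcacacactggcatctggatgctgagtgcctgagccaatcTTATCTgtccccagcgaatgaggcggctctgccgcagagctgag
ETS, chr11:3132917-3133037, 3.03 kb downstream of a start of Sfi1: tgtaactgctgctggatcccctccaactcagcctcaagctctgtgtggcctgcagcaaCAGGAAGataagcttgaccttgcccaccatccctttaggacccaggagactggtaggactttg
RUNX, chr17:3081576-3081696, 33.3 kb upstream of Scaf8: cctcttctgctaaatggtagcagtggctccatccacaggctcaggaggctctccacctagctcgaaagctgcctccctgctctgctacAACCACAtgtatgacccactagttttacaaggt
PU.1, chr9:90237878-90237998, 18 kb downstream of the start of Tbc1d2b: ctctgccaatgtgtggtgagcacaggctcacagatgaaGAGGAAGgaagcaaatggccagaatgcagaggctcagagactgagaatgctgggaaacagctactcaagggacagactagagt
AP-1, chr11:74832879-74832999, 2.03 kb downstream of the start of Mnt: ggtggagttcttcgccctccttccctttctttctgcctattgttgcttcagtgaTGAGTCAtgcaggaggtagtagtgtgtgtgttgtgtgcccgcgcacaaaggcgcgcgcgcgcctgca
CTCF, chr2:122381130-122381250, 12 kb upstream of Shf: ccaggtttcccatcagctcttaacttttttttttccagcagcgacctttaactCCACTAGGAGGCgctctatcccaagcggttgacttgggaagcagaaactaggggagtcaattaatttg
E-box, chr7:28383082-28383202, the same region as for GATA: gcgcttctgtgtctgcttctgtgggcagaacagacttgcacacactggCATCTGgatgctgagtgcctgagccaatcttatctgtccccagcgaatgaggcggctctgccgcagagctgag
No motif marked, chr7:28382132-28382252, among the 5 lowest mean folds, 1.95 kb upstream of Zfp36: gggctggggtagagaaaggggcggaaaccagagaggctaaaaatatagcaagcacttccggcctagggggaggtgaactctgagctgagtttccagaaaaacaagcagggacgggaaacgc

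The patterns searched, on both strands, were CAGGAAG and CCGGAAG for ETS, AGATAA for the GATA family, GAGGAAG for PU.1, TGNGGTT for RUNX, TGANTCA for AP-1, GCTGANTCA for NF-E2, TTGCNNAA for C/EBP, AAANNGAAA for IRF, CAGNTG for the E-box, CCNCNCCC for KLF, GGGCGG for the GC box, TTCNNNGAA for STAT, TGACGTCA for CRE, TGACAG for MEIS, CCAAT for NF-Y, GGAATG for TEAD and CAAAGTCCA for HNF4, with longer patterns for CTCF and MEF2. Every NF-E2 match is also an AP-1 match, and the ETS and PU.1 patterns share the letters GGAAG. A match is a description of the letters and not a bound site. The sequence printed with no motif marked is not free of these patterns, as it holds the ETS form CCGGAAG, the GC box and a KLF match.

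The folds that chose the weak regions ran from 1.77 to just under 3.5 in replicate 1 and from 1.82 to just under 3.5 in replicate 2. The median fold of weak regions was 3.06 in replicate 1 and 3.10 in replicate 2, and that of the other distal regions was 6.89 and 7.43. Just inside the threshold, the larger of the 2 folds was 3.4955, 3.4960, 3.4960, 3.4965 and 3.4974, and just outside it was 3.5 to 4 decimals in 2 regions and 3.5006, 3.5006 and 3.5009 in the next. A further 1291 shared distal regions had a larger fold between 3.5 and 4, while 143 weak regions were under 3 and 21 under 2.5 in both replicates. Fold was higher in replicate 2 at 363 weak regions and higher in replicate 1 at 319. Over weak regions the median log2 ratio, replicate 2 over replicate 1, was 0.0094 with an SD of 0.18, and over the other distal regions it was 0.083 with an SD of 0.26, a spread that the fold limit itself narrows.

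The listed values held more than the fold. For every one of the 47730 shared distal regions and in both replicates, a whole number of tags k over the summit and a local background λ gave back the listed pair of values, with fold equal to (k + 1)/(λ + 1) and p equal to the Poisson probability of more than k tags. The listed and recomputed −log10 p differed by at most 0.000065 in replicate 1 and 0.000060 in replicate 2. The lowest background was 2.38 tags in replicate 1 and 2.65 tags in replicate 2, a ratio of 1.11, and no region went below it. All backgrounds above the lowest were whole multiples of 0.015 to within 0.001. That is the depth which 1 tag of 150 bp adds on average to a window of 10 kb, although the tag length and window are not given in the sources used here. Tags and background below are these recovered numbers, which come from the same values as the rule and are given as a description.

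At the regions that both replicates list under 3.5, medians of weak and other distal regions lay further apart in local background than in tags over the summit. The median weak region had 28 tags over its summit in replicate 1 and 32 in replicate 2, against 33 and 39 for the median other distal region. For a single region, an exact Poisson 95% interval is 18.6 to 40.5 with 28 tags and 21.9 to 45.2 with 32 tags. It covers counting error only and is not an interval of the median over regions. The median local background at weak regions was 9.01 tags in replicate 1 and 9.87 in replicate 2, against 3.40 and 3.84 at the other distal regions. In units of the lowest background, these medians were 3.79 and 3.73 at weak regions and 1.43 and 1.45 at the other distal regions. The background of 602 weak regions (88.1%) in replicate 1 and 606 (88.7%) in replicate 2 was above the median of the other distal regions. More than the 90th percentile of the others (8.11 and 9.18 tags) was reached by 388 weak regions (56.8%) in each replicate. By the formulas above, a lower fold reaches a given p only with more tags over a higher background. Being listed in both replicates at a low fold therefore shapes these values. The pattern of the medians rests on the use of both replicates. With replicate 2 left out, the distal regions under 3.5 had medians of 13 tags and 3.47 background, against 30 and 3.21 for those at 3.5 or more in the same list, further apart in tags than in background. With replicate 1 left out, the medians were 21 tags and 6.27 background, against 35 and 3.66.

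**Figure D1:**
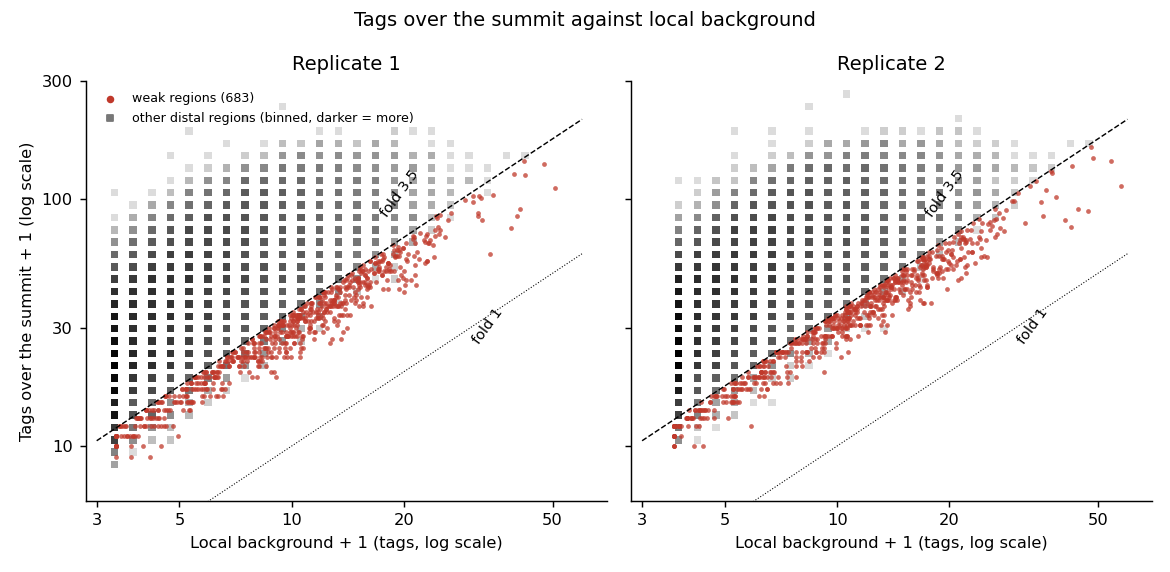
Tags over the summit plus 1 (vertical, log scale) against local background plus 1 (horizontal, log scale), for each replicate. Red points are the 683 weak regions and grey squares the other shared distal regions in bins, darker where there are more; the dashed line is a fold of 3.5 and the dotted line a fold of 1. Weak regions spread along the dashed line over the whole range of backgrounds, up to 49.9 tags in replicate 1 and 56.6 in replicate 2.

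Many weak regions were well covered. In replicate 1, 278 weak regions (40.7%) had at least as many tags as the median of the other distal regions, and in replicate 2, 258 (37.8%) did. Between the replicates, tags had a Spearman's rank correlation of 0.97 over the 683 weak regions and 0.94 over the other distal regions, and fold one of 0.33 over weak regions and 0.90 over the others. These are descriptions over regions of the same 2 libraries, and the fold limit narrows the range of weak regions. Within weak regions tags and background had a correlation of 0.98 in each replicate, which that narrow range of folds fixes. The median ratio of tags in replicate 2 to replicate 1 was 1.13 at weak regions and 1.17 at the other distal regions. The median −log10 p was 7.27 and 8.33 at weak regions and 20 and 24.1 at the other distal regions, and the highest at a weak region was 34.1 in replicate 1 and 38.6 in replicate 2.

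Few weak regions had sparse tags on an otherwise empty stretch. Those at the lowest background in both replicates numbered 24, and they had 8 to 10 tags over the summit in replicate 1 and 9 to 11 in replicate 2. At that background a fold under 3.5 allows no more than 10 and 11 tags, so the rule sets the upper ends of these ranges. So few tags give a modest p, which limits how many such regions are listed at all. Their median fold was 3.26 and 3.15, and 13 of these 24 had no other shared region within 10 kb. Another 9 were at the lowest background in 1 replicate. The 650 weak regions above the lowest background in both replicates had medians of 30 tags in replicate 1 and 34 in replicate 2 over backgrounds of 9.29 and 10.4, at median folds of 3.05 and 3.09. All 159 weak regions that entered the pooled IDR list, a list thresholded on irreproducible discovery rate, were among these 650.

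Regions under 3.5 in a single list were of another kind. Of the distal regions of replicate 1 on their own, 3847 (6.91%) had a fold under 3.5, and of those of replicate 2, 3104 (5.42%) did. The parts of weak regions had median tags of 28 and background of 8.99 in replicate 1, and 32 and 9.87 in replicate 2. In replicate 1, 1720 distal regions under 3.5 that replicate 2 did not list had a median of 10 tags over a background of 2.39, and 49.4% of them were at the lowest background. In replicate 2, 1872 such regions that replicate 1 did not list had a median of 19 tags over 5.41, with 10.1% at the lowest background. The replicates thus differed in what their unshared low-fold regions were. Regions under 3.5 in 1 replicate and at 3.5 or more in the other numbered 1439 in replicate 1, with medians of 15 tags and 3.91 background, and 539 in replicate 2, with 20 and 5.71. Another replicate's region overlapped 55.3% of the distal regions under 3.5 in replicate 1 and 39.7% in replicate 2, against 90% and 86.8% of the distal regions at 3.5 or more.

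**Figure D2:**
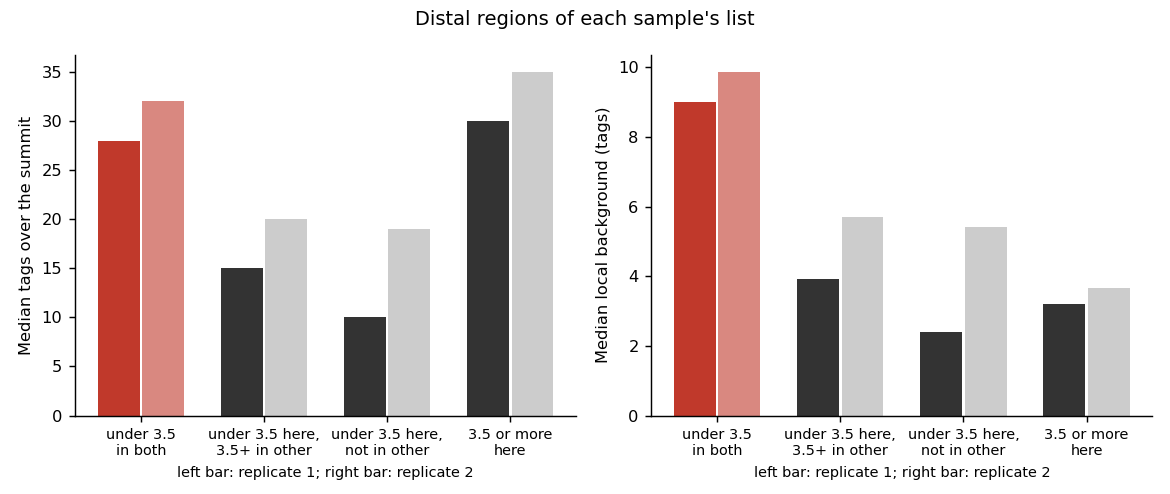
Median tags over the summit (left) and median local background (right) of distal regions in each replicate's own list, by their fold there and in the other replicate. Left bars are replicate 1 and right bars replicate 2; red marks regions under 3.5 in both, whose backgrounds of 8.99 and 9.87 tags were the highest of the 4 classes.

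Weak regions lay closer to other shared regions than the other distal regions did. The gap from a weak region to the nearest other shared region had a median of 1122 bp, with quartiles of 326 and 2340 bp, and the median for the other distal regions was 4553 bp, with quartiles of 1502 and 10152 bp. Distal regions under 3.5 had a median gap of 2795 bp with replicate 2 left out and 1606 bp with replicate 1 left out, and one of 2548 bp in the pooled list. Another shared region lay within 2 kb of 479 weak regions (70.1%) and of 30.2% of the other distal regions. Only 22 weak regions (3.22%) had none within 10 kb, against 25.3% of the other distal regions. The mean number of other shared regions within 10 kb was 3.22 for weak regions and 1.61 for the other distal regions. The nearest shared region, which could be a promoter region, had a median fold of 6.47 in replicate 1 and 6.68 in replicate 2. As the rule caps weak regions at 3.5, nearly any neighbour is stronger. The nearest region, promoter or distal, was another weak region in 24 of 683 cases. Weak regions are 683 of the 67991 shared regions of any kind, and 1.43% of the distal ones.

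The background followed the number of neighbours. Weak regions with no other shared region within 10 kb had a median background of 2.38 tags in replicate 1 and 2.65 in replicate 2, and the corresponding median tags were 10 and 11. With 1 neighbour, 83 weak regions had backgrounds of 5.34 and 5.65; with 2 or 3, 315 had 8.42 and 9.51; and with 4 or more, 263 had 11.4 and 12.5. At the same numbers of neighbours the other distal regions had 2.38 and 2.65, 3.11 and 3.49, 4.3 and 4.93, and 6.71 and 7.76. Weak regions made up 0.184% of distal regions with no neighbour, 0.616% with 1, 1.85% with 2 or 3 and 5.00% with 4 or more. Spacing and background are read from the same stretches of the same lists and are not independent measures, and the part of spacing in the low folds was not tested.

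**Figure D3:**
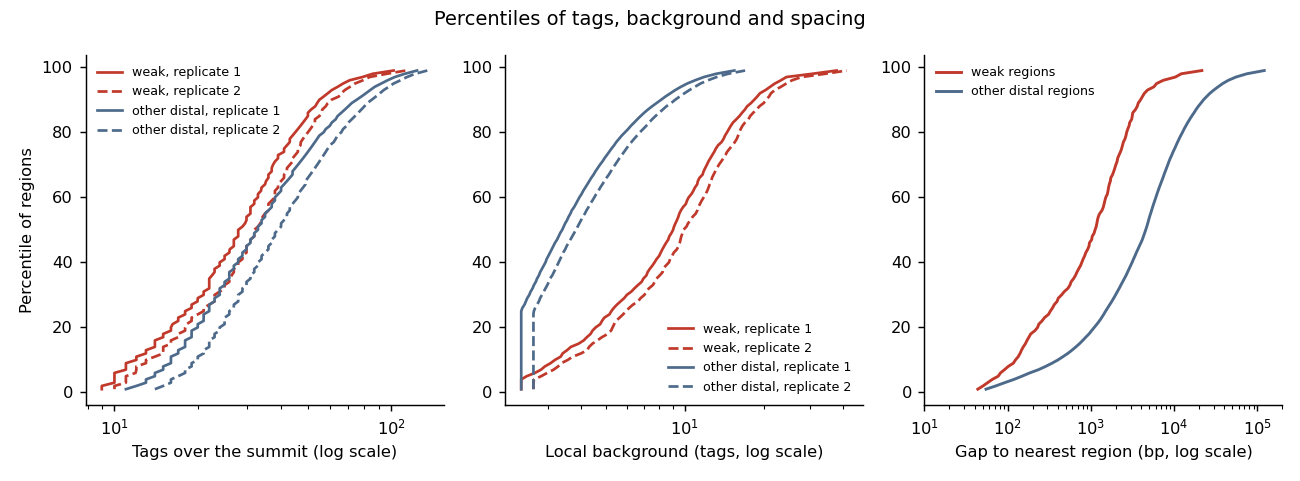
Percentiles of regions (vertical) by tags over the summit, local background and gap to the nearest other shared region (horizontal, log scales), for weak regions in red and other distal regions in blue; solid and dashed lines are replicates 1 and 2. The curves of weak and other distal regions lie near each other for tags and apart for background and gap.

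Weak regions were also nearer to genes and promoters. Their median distance to a transcript start was 4707 bp, against 10135 bp for the other distal regions, and 356 weak regions (52.1%) were within 5 kb of a start, against 27.6%. A promoter region, that is a shared region within 1 kb of a start, lay within 5 kb of 43.3% of weak regions and of 12% of the other distal regions. Beyond 50 kb of any start were 29 weak regions (4.25%), against 7.96% of the other distal regions. By summit, 51 weak regions (7.47%) were in exons, 384 (56.2%) in introns and 248 (36.3%) between genes, the same counts in both replicates. For the other distal regions these shares were 5.54%, 52% and 42.5% in replicate 1. Weak regions covered 0.236 Mb, with a median width of 315 bp and a range of 171 to 1274 bp, and the other distal regions had a median width of 420 bp. By chromosome, weak regions were between 0.923% of the distal regions (25 of 2708, chromosome 3) and 2.09% (61 of 2913, chromosome 11).

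Sequence at the summits of weak regions was close to that of the other distal regions for most factors. The ETS form CAGGAAG lay within 100 bp of the summit in 19.9% of weak regions in replicate 1 (136) and 20.2% in replicate 2 (138), and in 19.6% and 19.7% of the other distal regions. In windows of the same length 1 kb to each side of weak regions it was in 8.20% and 7.76%. The PU.1 form was in 22.7% and 23.6% of weak regions and 25% and 25.2% of the other distal regions, against 7.76% and 8.05% beside weak regions. RUNX was in 17.1% and 18% of weak regions and 19.1% and 19.3% of the others. C/EBP was in 13.5% and 13.2% of weak regions and 15.5% and 15.6% of the others, and AP-1 in 11.0% and 10.8% of weak regions and 10.7% in each replicate of the others. NF-E2, the longer form that the megakaryocyte factor of that name binds, was in 2.93% and 2.64% of weak regions and 2.48% of the others.

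CTCF stood apart. Its motif was within 100 bp of the summit in 15 weak regions (2.20%) in replicate 1 and 11 (1.61%) in replicate 2, and in 7.39% of the other distal regions in both. The share was higher in each higher class of fold, with 3.10% and 3.02% of regions whose larger fold was 3.5 to 5 and 11.3% in each replicate at 15 or more. It was lower at weak regions than at the other distal regions at every spacing. Within 1 kb of another shared region it was 1.57% and 1.26% of weak regions against 5.27% and 5.22% of the others, and beyond 10 kb it was 1 of 22 weak regions in each replicate (4.55%) against 9.46% and 9.45%. Regions of 3.5 to 5 had a higher share than weak regions at each spacing up to 10 kb. Beyond 10 kb they had 2.97% in each replicate, below the share of the 22 weak regions there. In the windows beside weak regions the motif was in 0.293%.

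GATA, the motif of the factors that direct megakaryocyte and erythroid genes, did not separate summit from surroundings. AGATAA was in 11.0% and 10.7% of weak regions and in 9.26% and 9.19% of the other distal regions, and in 10.9% and 10.6% of the windows beside weak regions. AGATAA is rich in A and T, and the windows beside weak regions had a lower GC content than the summits, for which these shares were not adjusted. The KLF and GC box patterns, rich in G and C, and the E-box were in somewhat larger shares of weak regions than of the others. KLF was in 26.6% and 27.2% of weak regions against 23.4% and 23.3% of the others, and the GC box in 8.93% and 9.81% against 7.09% and 7.10%. The E-box was in 47.7% and 46.9% against 44.9% and 45.0%. NF-Y went the other way, with 17.1% and 16.8% of weak regions against 21.2% and 21.1% of the others. HNF4, a liver factor, was at none of the weak regions and at 0.244% and 0.255% of the others. At shares this low, 683 regions would hold very few matches, so none among them shows no difference. The median GC content within 100 bp of the summit was 50.2% at weak regions and 49.3% at the other distal regions in both replicates, and beside them 46.8% and 47.3% at weak regions against 45.3%.

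**Figure D4:**
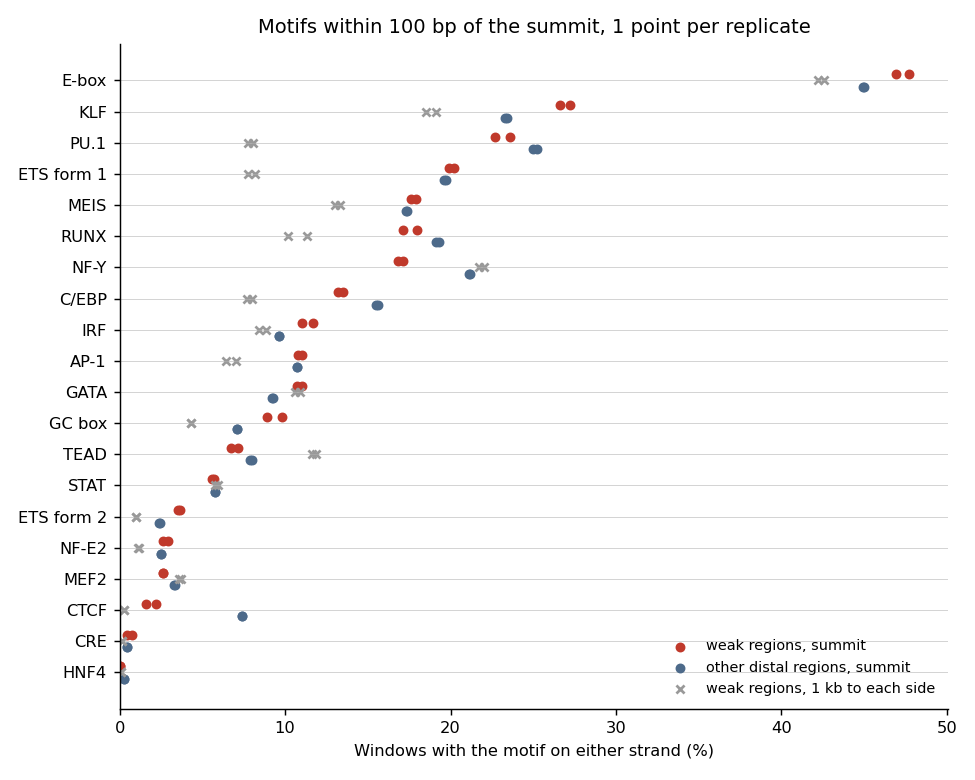
Share of windows with each of 20 motifs on either strand (horizontal, percent), with 1 point for each replicate. Red points are weak regions and blue points other distal regions, within 100 bp of the summit, and grey crosses are windows 1 kb to each side of weak regions; CTCF is the motif at which red (2.20% and 1.61%) and blue (7.39%) lie furthest apart as a ratio among those in more than 1% of the other distal regions. ETS form 1 is CAGGAAG and form 2 CCGGAAG.

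**Figure D5:**
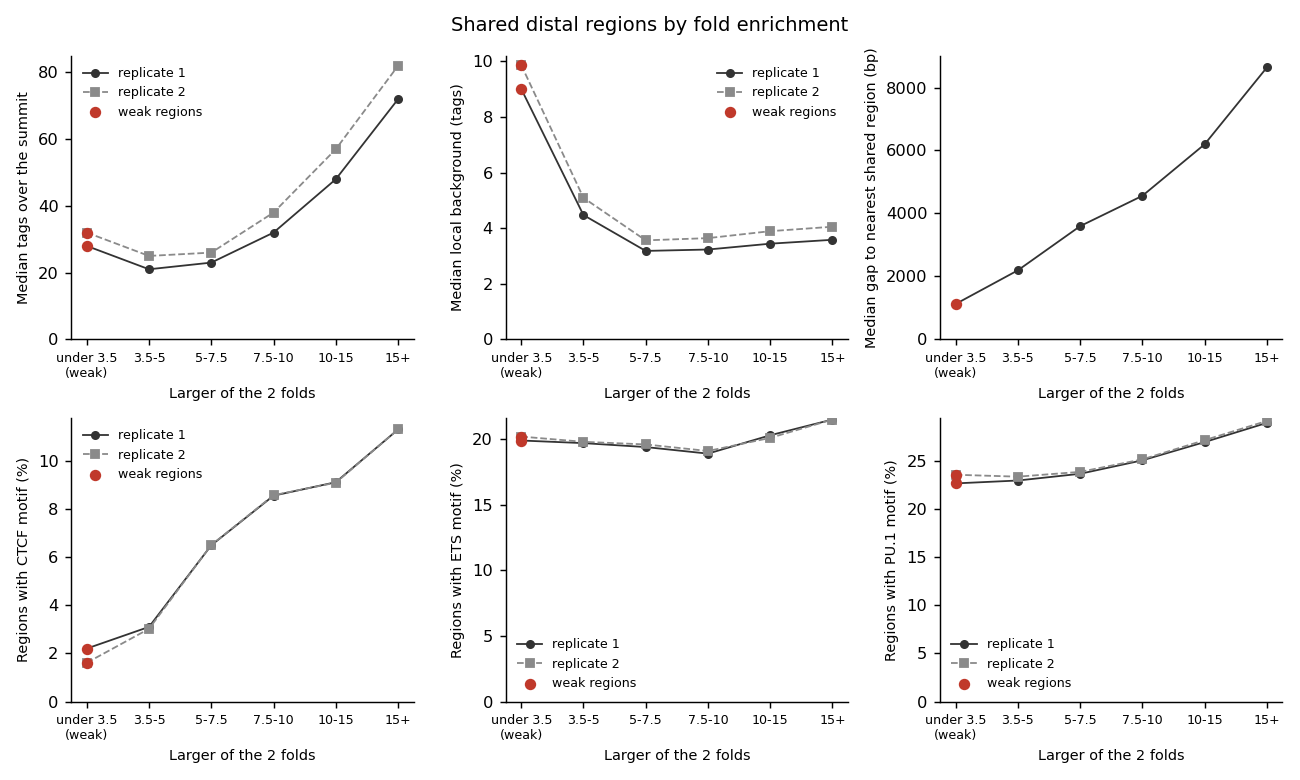
Values by the larger of the 2 folds, from weak regions (red) to 15 or more, for each replicate where a replicate has its own value. Weak regions hold more tags (28 and 32) than regions of 3.5 to 5 (21 and 25), over the highest background (9.01 and 9.87 tags against 4.47 and 5.09) and with the smallest gap (1122 bp). Fold comes from these same tags and backgrounds. A lower fold reaches a given p only with more of both, so this order in tags and background follows in part from the rule.

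Masked repeats and repeated sequence were no more frequent at weak regions. Bases masked as repeat made up 11.9% and 12% of the windows around the summits of weak regions and 12.2% at the other distal regions. Of 6 stretches of 31 bases at each summit, at least 1 occurred again in the genome at 44 weak regions (6.44%) and 6.59% of the other distal regions. The summits of the replicates lay a median of 16 bp apart in weak regions and 8 bp in the other distal regions, and more than 100 bp apart in 61 weak regions (8.93%) and 2.71% of the others.

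Among the lists that the authors thresholded on reproducibility, weak regions were scarce. They were chosen for a low fold and their −log10 p was low with it, so small shares in thresholded lists follow in part from the rule. The IDR list of replicate 1 held 23 weak regions (3.37%) and that of replicate 2 held 24 (3.51%), while 13 were in both and 649 in neither. Those lists held 53.2% and 58.9% of the other distal regions. The pooled IDR list held 159 weak regions (23.3%) and 80.6% of the other distal regions, and the conservative list held 209 (30.6%) and 80.9%. All 683 were in the list of replicated peaks, and the rule had already chosen them as overlapping between the replicates. In the pooled list of pseudoreplicated peaks, the median fold at weak regions was 3.19, and 97 (14.2%) reached 3.5 or more.

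The protein-coding genes nearest to weak regions were mostly different ones, with 603 genes for the 683 regions and 58 genes nearest to more than 1. Sfi1, which encodes a centrin-binding spindle protein, had the most, with 9 weak regions among its 14 distal regions, between 1.37 and 7.13 kb from a start. They had 59 to 138 tags over the summit in replicate 1 and 75 to 142 in replicate 2, over backgrounds of 22.3 to 49.9 and 26.3 to 56.6 tags, and folds of 1.77 to 3.36 and 1.89 to 3.47. A repeated stretch of 31 bases was present at 5 of these 9, and whether reads from other copies were counted there was not tested. The weak region at the ETS sequence above was one of these 5. It had 138 tags in replicate 1 over a background of 46.6 and 142 in replicate 2 over 53.0.

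Zfp36, which encodes the mRNA decay factor tristetraprolin, was nearest to 3 weak regions and to 1 other distal region. The region that carries the GATA and E-box sequences above (chromosome 7, 28382896 to 28383462) had 125 and 135 tags over backgrounds of 38.5 and 41.6, a fold of 3.19 in each replicate and a −log10 p of 28.2 and 30.3. Beside it, the region from 28382064 to 28382317 had 90 tags in each replicate over 39.9 and 43.2 and folds of 2.23 and 2.06. The region from 28376447 to 28376694 had 75 and 76 tags over 37.8 and 41.4, and its folds of 1.96 and 1.82 gave the lowest mean of all weak regions together with one at Sfi1. These 3 had 9 or 10 other shared regions within 10 kb and no repeated stretch.

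Counts over the summit were highest at the weak region with the RUNX sequence above (chromosome 17, 3081480 to 3082753), an intronic region 2398 bp from the start of the pseudogene Pisd-ps2 and 1274 bp wide. It had 141 tags in replicate 1 over a background of 40.9 and 161 in replicate 2 over 46.9, and folds of 3.39 and 3.38. Its neighbour 619 bp away (3080181 to 3080860) had 124 and 145 tags over 41.3 and 47.4 and folds of 2.96 and 3.02. Of the 6 stretches of 31 bases, 3 in the first and 5 in the second occurred elsewhere in the genome, and whether reads from other copies were counted there was not tested.

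The other genes with most weak regions were Tomm20 (5 of 32 distal regions), Chd7 and Zfp608 (4 of 29 and 4 of 49), and Cxcr4, Itpk1, Lyz2, Maf, Mbp, Padi4 and Prex1 with 3 each. The 5 nearest to Tomm20, a mitochondrial import receptor, lay 98.1 to 143 kb from it, with 34 to 66 tags in replicate 1 and 38 to 81 in replicate 2. The 4 nearest to Chd7, a chromatin remodeller, lay 42.0 to 58.1 kb away with 28 to 47 and 33 to 48 tags. Cxcr4, the receptor that holds blood cells in the marrow, had 3 of its 36 distal regions among them, with 21 to 39 and 22 to 41 tags. Maf, a transcription factor gene, had 3 of 42 at 262 to 432 kb. Lyz2 and Padi4, genes of myeloid cells, had 3 of 7 and 3 of 10, with 33 to 42 and 24 to 41 tags in replicate 1 and 35 to 47 and 25 to 41 in replicate 2.

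Genes of the megakaryocyte lineage had weak regions in some cases, counted within 50 kb of a start. Among all 20780 protein-coding genes of these chromosomes, 1177 (5.66%) had at least 1. Of 24 transcription factor genes of megakaryocytes and erythroid cells, 5 did, of 30 surface and granule genes 4, of 18 proplatelet cytoskeleton genes 3, of 23 platelet signalling genes 2 and of 20 thrombopoietin and cytokine signalling genes 2. The transcription factor genes also had more distal regions of any kind, a median of 9 per gene against 3 for all genes. Weak regions made up 3.69% of the distal regions counted at those factors, 2.91% at the surface and granule genes, 2.72% at the cytoskeleton genes, 1.38% at thrombopoietin and cytokine signalling and 0.943% at platelet signalling, against 1.72% at all genes. The share at the factors was not particular to them, with 3.79% at monocyte and macrophage, 3.45% at housekeeping and 3.23% at neuronal and at mesenchymal stromal genes. Among lists of other cells, 4 of 21 neutrophil, 3 of 20 monocyte and macrophage, 3 of 18 housekeeping, 2 of 15 endothelial, 2 of 15 mesenchymal stromal, 1 of 20 erythroid, 1 of 15 B cell, 1 of 18 neuronal, 0 of 16 T and NK cell and 0 of 19 hepatocyte genes had 1 or more. Neighbouring genes can share a weak region, as Elane and Prtn3 do, and Fpr1 and Fpr2, which are all 4 of the neutrophil genes counted. The lists are small, and 1 gene moves a share by several percent.

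Nfe2, which encodes the subunit of NF-E2 needed for platelet release, had 2 weak regions among 5 distal ones. The first lay 2.20 kb upstream of a start with 42 and 46 tags over 12.4 and 12.6 (folds 3.21 and 3.44), and the second 16.4 kb upstream, in an intron nearest to Copz1, with 37 and 41 tags over 10.3 and 11.2. Runx1, a factor required for blood formation, had 2 among 20. Its region 46.8 kb upstream of a start was at the lowest background in replicate 1 only. It had 9 and 11 tags over 2.38 and 3.18 (folds 2.96 and 2.87), at summits 203 bp apart. The one 42.0 kb downstream had 18 and 31 tags over 7.05 and 8.57 (folds 2.36 and 3.35). Ikzf1, the Ikaros gene, had 2 among 10, at 3.96 kb with 26 and 38 tags over 11.8 and 14.4 and at 29.7 kb with 17 and 21 over 4.73 and 5.31.

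Nbeal2, whose product is needed for platelet alpha granules, had 2 weak regions among 8 distal ones. The one 1.61 kb downstream of a start had 42 and 49 tags over 17.1 and 17.7 (folds 2.37 and 2.67), and the one 19.4 kb upstream, nearest to Ccdc12, had 33 and 42 over 12.5 and 13.0. Cd9, a tetraspanin gene, and Selp, the P-selectin gene, had 1 each, 32.4 kb downstream of a start with 37 and 42 tags and 36.9 kb upstream with 26 and 33. At the prostacyclin receptor gene Ptgir a weak region 2.05 kb downstream of a start had 27 and 30 tags, and at Vav3, a guanine nucleotide exchange factor gene, one 21.8 kb downstream had 34 and 34. The remaining gene that the naming rule gives for platelet signalling, F2r, had none.

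At Cish, an inhibitor of cytokine signalling, a weak region 10.8 kb upstream of a start and nearest to Mapkapk3 had 87 and 97 tags over 25.8 and 28.7 (folds 3.29 and 3.30). At Sh2b3, the Lnk adaptor gene, one 8.24 kb upstream had 31 and 34 tags over 8.89 and 9.47, and Cbl had none. Myh9, the non-muscle myosin heavy chain gene of platelets, had 2 among 23 distal regions, 5.82 kb downstream with 18 and 18 tags over 4.50 and 5.04 and 5.09 kb upstream with 49 and 39 over 13.5 and 13.4. Actb had 1 at 2.57 kb upstream with 87 and 112 tags over 30.6 and 31.9 (folds 2.78 and 3.43), and Rhoa had 1 at 12.1 kb, nearest to Gpx1, with 59 and 53 over 17.7 and 19.2.

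The label was checked against promoters. A shared region lay within 500 bp of a start in 18 of 30 megakaryocyte surface and granule genes, a share close to the 60.6% of all protein-coding genes, so these markers were no more often open than genes at large. It did so at 22 of 24 megakaryocyte and erythroid transcription factor genes. Itga2b, Itgb3, Pf4 and Vwf were among those 18, whereas the platelet glycoprotein genes Gp1ba, Gp1bb, Gp5, Gp9 and Gp6 had none there. Of 21 neutrophil genes 19 had one, of 20 monocyte and macrophage genes 17 and of 20 erythroid genes 17, all larger shares than that of the surface and granule genes. Fewer had one among T and NK cell genes (8 of 16), B cell genes (7 of 15), endothelial and mesenchymal stromal genes (6 of 15 each), neuronal genes (5 of 18) and hepatocyte genes (1 of 19). Their part in the weak regions, for example at Lyz2 and Padi4, was not tested.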

How the data were processed

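Peaks of 2 ATAC-seq samples, 1 group, were analysed from the lists the authors deposited on mm10, made, per the file headers and README, from filtered alignments with some genome regions excluded. The caller, the aligner and their versions are not given in the sources used here. In the deposited lists column 7 is the fold enrichment, a ratio by the usual column order of such lists, which no header states. The deposited columns 8 and 9 are the −log10 p-value and −log10 q-value, and column 10 is the summit position. Read totals are not used here, and the depth is known only through the recovered tags. Lists of each sample were used with 0 value columns left unmapped; pooled lists, called on both samples together, were used for overlap and as an alternative.

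Peaks overlapping by 1 bp were merged, and distances were taken to all GENCODE M21 transcript starts. Sequence and repeat masking came from RefSeq GRCm38 (mm10), with windows of 100 bp to each side of each replicate's summit. Spacing is edge to edge. Tags and background were solved from fold and p, with a tolerance of 0.01 in −log10 p, by steps tested on simulated data. The simulated backgrounds were lower than those of most weak regions, so that test does not cover the higher backgrounds. Python 3.11.15, numpy 2.4.6, pandas 2.3.3 and scipy 1.17.1 were used.

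No test was made: 1 group of 2 samples allows none, and regions are not replicates. The members and the 15 gene lists were chosen with earlier results of these data known. The naming rule took the 10 coding genes nearest to most weak regions (up to 12 with ties), the 3 genes of each of the first 5 lists with most weak regions within 50 kb, the 5 regions with the highest −log10 p, the 5 with the lowest mean fold and the 3 widest; a few items that it gives are not reported here. The naming of single promoters (Itga2b, Itgb3, Pf4, Vwf, Gp1ba, Gp1bb, Gp5, Gp9, Gp6) came after their values were seen. Genes on chromosome X are not used here. Alternatives were other fold limits, each list alone, the pooled list, other overlaps, start distances and windows. Those for tags and background, and those without repeated sequence or without single genes, were chosen after seeing the data.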

Additional observations from a re-analysis of the deposited data

How the results depend on the processing

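The number of weak regions (683) depended on the fold limit and the list. It was 143 under 3, 1974 under 4, between 3104 and 3847 with 1 replicate left out and 8479 in the pooled list, where replicates are called together; it stayed between 535 and 842 with 50% reciprocal overlap, other start distances, protein-coding starts or chromosome X. The median gap of 1122 bp (order-statistic 95% interval 967 to 1222) was 1480 under 4, 1606 to 2795 with 1 replicate left out, 2548 in the pooled list and 1649 with distal neighbours only. Median tags (30.0, mean of the replicates) were 35.5 under 3 and 21 and 13.0 with replicate 1 or 2 left out. Median background (9.44) was 12.6 under 3, 7.62 under 4, and 6.27 and 3.47 with replicate 1 or 2 left out. In the list of replicate 1 alone, distal regions at 3.5 or more had 3.21. Leaving out regions with repeated sequence or those nearest to Sfi1, Zfp36 or Scaf8 moved tags and background by less than the SD of the replicates.

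The ETS share (20.1%) was 24.1% under 3, 20.5% under 4, 19.1% to 19.4% with 1 replicate left out, 19.3% in the pooled list, and 13.2% and 30.1% in windows of 50 and 250 bp, where the other distal regions had the same 13.2% and 30.1%. The CTCF share (1.90%) was 1.4% under 3 and 0.952% and 3.37% in those windows, against 6.78% and 8.29% of the other distal regions. Median GC (50.2%) was 51.5% under 3, 49.3% with either replicate left out and in the pooled list, and 51.0% and 48.6% in the 2 windows. Masked bases (12%) were 10.5% under 3, 12.3% to 12.5% with 1 replicate left out, 12.7% in the pooled list and 14.7% in the wide window. The share between genes (36.3%) was 41.7% with protein-coding genes only. The causes were not tested.

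No paired analysis was possible because the 2 replicates form 1 group and no comparison between groups was made. Depth limits the weak regions with about 10 tags most, where absence from a list means only that nothing was detected at its depth.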
